A study of Mus musculus with 8 samples.

Results

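The 10 genes described here encode the core of transforming growth factor beta (TGF-beta) signaling. They are the ligands Tgfb1, Tgfb2 and Tgfb3, the receptors Tgfbr1 and Tgfbr2, the signal transducers Smad2, Smad3 and Smad4, the inhibitor Smad7, and the co-repressor Skil. They were chosen by name from the 23761 genes of the deposited table. All 10 were listed, and 9 reached the mean expression required for testing. The expression of these genes was compared between bone marrow-derived macrophages (BMDMs) from 4 LysM mice and 4 K2KO mice by RNA-sequencing of total RNA. LysM mice carried Cre recombinase on both alleles of the lysozyme M gene, Lyz2, which is expressed in myeloid cells (LysM Cre/Cre). K2KO mice carried the same 2 Cre alleles and floxed Klf2 on both alleles (KLF2 flox/flox), so both groups lacked an undisturbed copy of Lyz2. The mice were 3 months old, the marrow was grown in DMEM with medium conditioned by L929 fibroblasts, and the sample labels mark every library as vehicle. Library names (LysM0 to LysM3, K2KO0 to K2KO3) follow the column numbers of the table, from which the genotype but not the single mouse is known.

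TGF-beta is secreted in a latent complex and released from it by integrins, proteases and thrombospondin. The free ligand binds TGFBR2, which phosphorylates TGFBR1. TGFBR1 phosphorylates SMAD2 and SMAD3, and these enter the nucleus with SMAD4 to regulate transcription. SMAD7, itself a target of the pathway, blocks and degrades the activated receptor, and SnoN, the product of Skil, represses genes bound by SMADs until the signal triggers its degradation. In macrophages the pathway is known for dampening inflammatory gene expression and for the identity of tissue-resident cells such as microglia. Messenger RNA of a gene does not show how much active ligand or phosphorylated SMAD a cell holds.

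Expression is given in FPKM (the fragments of a gene divided by transcript length and by the mapped fragments of the library) as the authors computed it. The FPKM of a library summed to 497253 to 551608 in the LysM group and to 448235 to 501965 in the K2KO group. The number of fragments behind a value is unknown, and only a depth relative to LysM0 could be derived, from steps among low values, at 0.902 (K2KO2) to 1.45 (K2KO1). Gapdh was listed at 0 to 0.4999 FPKM, although Actb was at 1962 to 2949 FPKM, and low values are therefore not taken to mean that a transcript was missing. Klf2, the floxed gene, was at 44.1, 52.9, 64.7 and 72.8 FPKM in the LysM libraries and at 45.5, 41.6, 59.2 and 59.3 FPKM in the K2KO libraries. The groups overlapped (log2 fold change -0.18, standard error, SE, 0.17, limma adjusted p = 0.460). Because Klf2 was not clearly lower, directions are given for the libraries labelled K2KO, by their label alone. Of 9 macrophage markers all 9 were expressed at a mean of at least 1 FPKM. Their summed level was 4156 to 4389 FPKM in the LysM libraries and 3891 to 4044 FPKM in those labelled K2KO, with Cd68 the most abundant. Lyz2, the locus that holds Cre in both groups, was at 16.4, 22.5, 16.5 and 19.0 FPKM in the LysM libraries and at 12.4, 15.6, 11.5 and 13.2 FPKM in those labelled K2KO (log2 fold change -0.49, limma adjusted p = 0.0260). Mertk was the other macrophage marker that passed (0.36, limma adjusted p = 0.0285), and after correction for GC content and length neither did (limma adjusted p = 0.0616 for Lyz2 and 0.0679 for Mertk).

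Tgfb1 dominated the ligands in these macrophages. Its mean over the 8 libraries was 201 FPKM, above 98.3% of the listed genes. Tgfb3 followed at a mean of 1.57 FPKM and Tgfb2 at 0.0340 FPKM. The share of the summed ligand FPKM that came from Tgfb1 was 99.2% to 99.6% in the LysM libraries and 98.5% to 99.7% in those labelled K2KO. The receptors and transducers lay between these extremes. In descending order the means were 20.8 FPKM for Tgfbr2, 17.5 for Tgfbr1, 15.5 for Skil, 11.9 for Smad2, 8.54 for Smad4, 3.44 for Smad3 and 2.59 for Smad7. The ranges of neighbours in this order overlapped for Tgfbr2 and Tgfbr1, Tgfbr1 and Skil, Skil and Smad2, Smad3 and Smad7, and Smad7 and Tgfb3. They did not overlap for Tgfb1 and Tgfbr2, Smad2 and Smad4, Smad4 and Smad3, or Tgfb3 and Tgfb2.

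**Figure D1:**
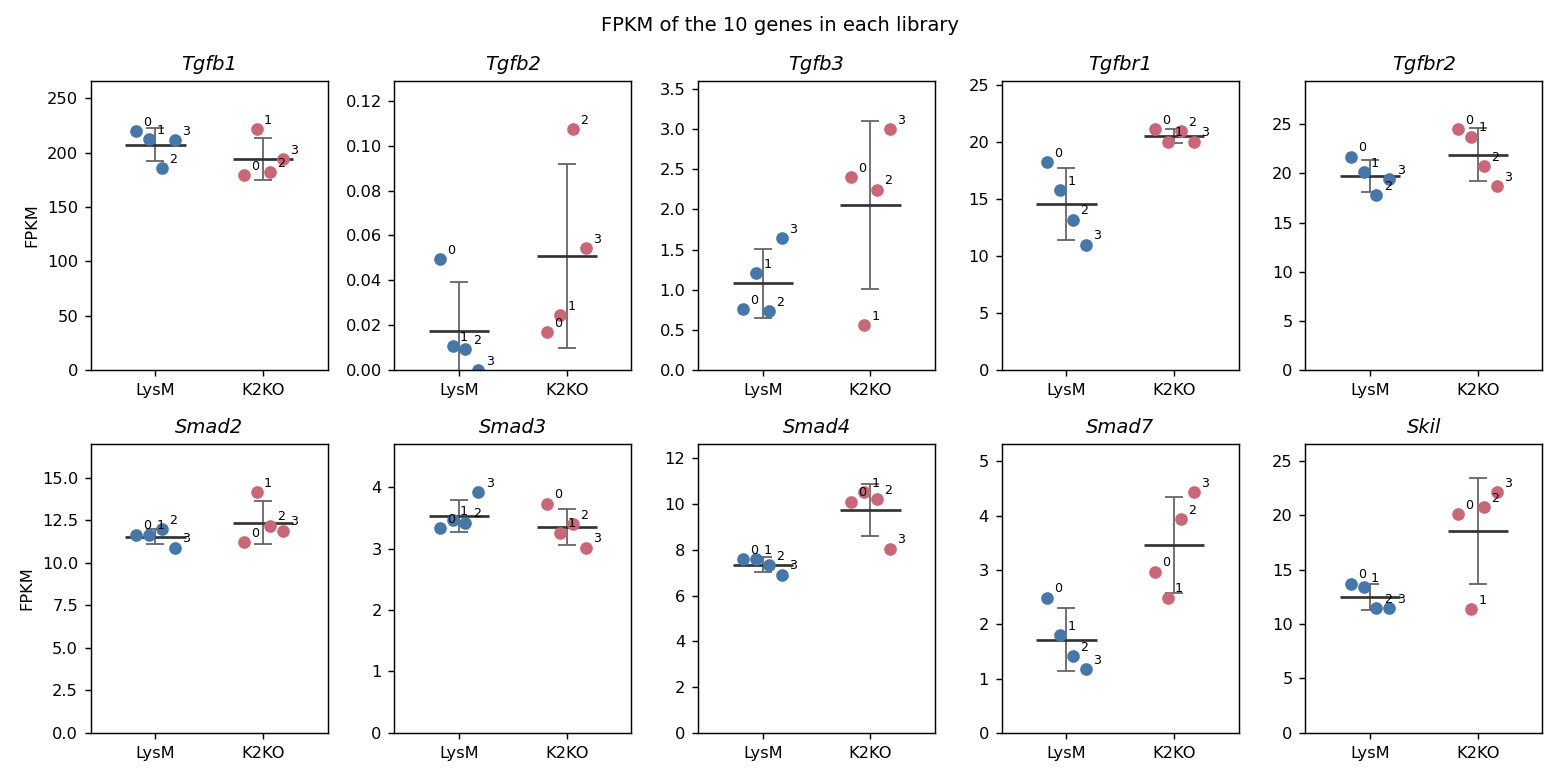
FPKM of each of the 10 genes (vertical axis, from 0, scaled to each gene) in the 4 LysM libraries (blue) and the 4 libraries labelled K2KO (red). Digits are the column numbers, horizontal bars the group means and error bars the SD, cut at 0 for Tgfb2. The groups separate for Tgfbr1 and Smad4, nearly separate for Smad7, and K2KO1 lies at or below the LysM libraries for Tgfb3 and Skil.

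Of the 9 tested members, 3 passed, and all 3 were higher in the libraries labelled K2KO. These were the receptor Tgfbr1, the common SMAD Smad4 and the inhibitor Smad7. A gene passed at a limma adjusted p under 0.05 with an absolute log2 fold change over 0.26 on the log2(FPKM + 0.1) scale, which understates the change of genes at low FPKM. Among all 10920 tested genes 18.4% passed, 9.84% higher and 8.61% lower. The groups did not overlap for 2 of the 9, Tgfbr1 and Smad4, both higher in the libraries labelled K2KO. Of all tested genes 23.1% did not overlap in either direction and 12.9% in this one. The median log2 fold change was 0.39 over the 9 members and 0.011 over all tested genes, both without correction for GC content and length. With that correction the log2 fold change became lower for Tgfbr1 (0.30), Skil (0.29), Tgfbr2, Smad2, Smad3 and Smad4. It became higher for Tgfb1, Tgfb3 and Smad7. In bulk RNA, more cells with a transcript and more transcript per cell cannot be told apart.

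**Figure D2:**
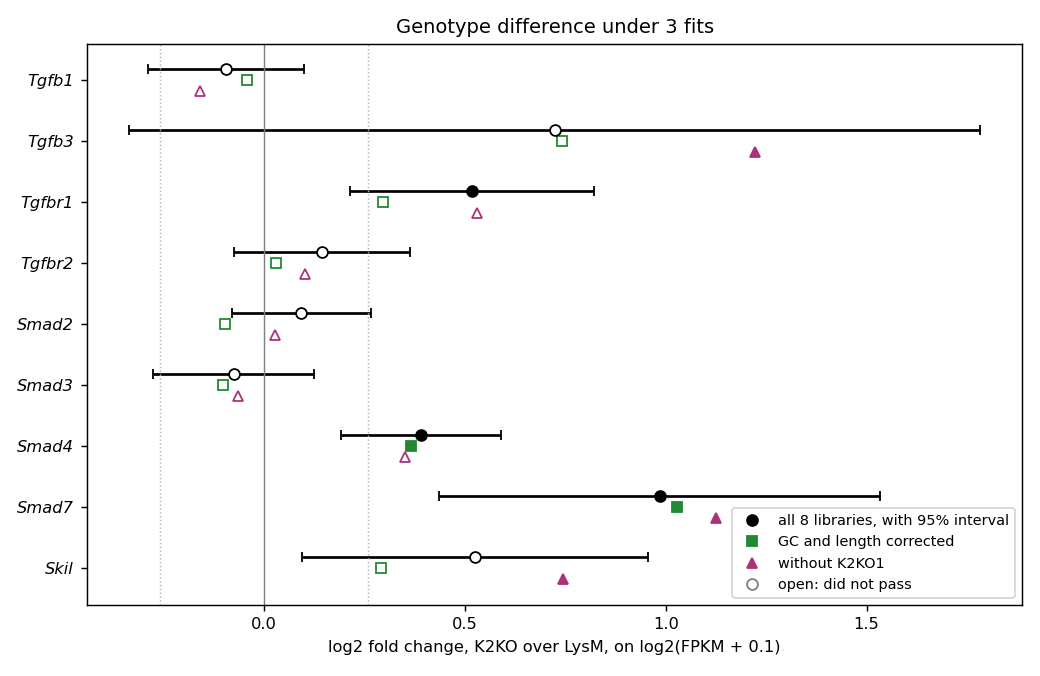
Log2 fold change of the 9 tested members, libraries labelled K2KO over LysM, on the log2(FPKM + 0.1) scale (horizontal axis), with all 8 libraries (circles, bars are 95% intervals), after correction for GC content and transcript length (squares) and without K2KO1 (triangles). Filled symbols passed and dotted lines mark 0.26 in each direction. Smad7 passed in all 3 fits drawn, Tgfbr1 with all libraries only, and Tgfb3 and Skil without K2KO1 only. K2KO1 was the lowest library labelled K2KO for Smad7, Tgfb3 and Skil, so leaving it out raises their fold change. Smad7 passed in 3 of the 8 fits with 1 library left out.

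Tgfb1, the main ligand of the immune system, lies on chromosome 7 from 25687002 to 25705077 on the plus strand (GRCm38, equivalent to mm10, as for all coordinates below). It was at 219.8, 212, 186 and 212 FPKM in LysM0 to LysM3 and at 179.5, 222, 182 and 194 FPKM in K2KO0 to K2KO3. The groups overlapped, with the highest and the lowest of all 8 values in K2KO1 and K2KO0. The means of 207 ± 15.0 FPKM (SD, n = 4) and 194 ± 19.2 FPKM (SD, n = 4) gave a log2 fold change of -0.10 (SE 0.09, 95% interval -0.29 to 0.10, limma adjusted p = 0.439).

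Tgfb3, a ligand best known from palate and lung development, lies on chromosome 12 from 86056745 to 86079041 on the minus strand. It was at 0.757, 1.21, 0.731 and 1.64 FPKM in the LysM libraries and at 2.40, 0.561, 2.24 and 3.00 FPKM in K2KO0 to K2KO3. Thus K2KO0, K2KO2 and K2KO3 lay above the LysM range, and K2KO1 was the lowest of all 8. The log2 fold change was 0.72 (SE 0.47, 95% interval -0.34 to 1.78, limma adjusted p = 0.283). Without K2KO1 it was 1.22 and Tgfb3 passed (limma adjusted p = 0.0415), where 6.65% of all tested genes passed. Without K2KO3 it was 0.48 (limma adjusted p = 0.496). Tgfb3 was among the genes that the study singled out from these same libraries, so its direction is not independent evidence. Tgfb3 overlaps Gm37804 (mean 0.0139 FPKM) and Gm48008, not analysed here, on the opposite strand. Its only match to another gene, 258 identical bases of Gm48008, may be this shared locus. Whether strand was used in quantification is not given, so its values are uncertain to that extent.

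Tgfb2, a ligand of developing heart and eye, lies on chromosome 1 from 186622792 to 186705989 on the minus strand and did not reach a mean of 1 FPKM. It overlaps Gm29491, not analysed here, on the opposite strand. It was listed at 0.0494, 0.0107, 0.00925 and 0 FPKM in the LysM libraries and at 0.0169, 0.0245, 0.107 and 0.0543 FPKM in those labelled K2KO. The groups overlapped at a level where the number of fragments is unknown. The difference in mean log2(FPKM + 0.1) was 0.34 (exact two-sided permutation test, p = 0.171). The size of this difference was set by the pseudocount, at 0.046 with 1 and 1.22 with 0.01, and by K2KO2, without which it was 0.18.

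Tgfbr1, the receptor kinase that phosphorylates SMAD2 and SMAD3, lies on chromosome 4 from 47353222 to 47414931 on the plus strand. It was at 18.2, 15.8, 13.2 and 11.0 FPKM in LysM0 to LysM3 and at 21.1, 20.03, 20.9 and 20.03 FPKM in K2KO0 to K2KO3. The lowest library labelled K2KO was above the highest LysM library, and the LysM values were spread more widely (SD 3.13 against 0.586 FPKM). Tgfbr1 rose from 14.6 FPKM to 20.5 FPKM, a log2 fold change of 0.52 (SE 0.13, 95% interval 0.21 to 0.82, limma adjusted p = 0.0298). The exact two-sided permutation test gave p = 0.0286, the smallest that 4 against 4 allows. When GC content and transcript length were corrected for, the log2 fold change was 0.30 and Tgfbr1 no longer passed (limma adjusted p = 0.165). It also did not pass without LysM1, LysM2, LysM3, K2KO0, K2KO1 or K2KO2, each left out in turn (limma adjusted p = 0.0593, 0.0758, 0.0731, 0.0793, 0.0706 and 0.0782), and the log2 fold change then lay between 0.39 and 0.56.

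Tgfbr2, the receptor kinase that binds the ligand first, lies on chromosome 9 from 116084293 to 116175360 on the minus strand. It was at 21.7, 20.1, 17.8 and 19.4 FPKM in the LysM libraries and at 24.5, 23.7, 20.7 and 18.7 FPKM in K2KO0 to K2KO3. The groups overlapped, with 2 libraries labelled K2KO above every LysM library and K2KO3 below all but LysM2. The log2 fold change was 0.14 (SE 0.10, 95% interval -0.07 to 0.36, limma adjusted p = 0.3004). The ratio of Tgfbr1 to Tgfbr2 FPKM within a library was 0.841, 0.785, 0.741 and 0.567 in the LysM libraries and 0.863, 0.844, 1.01 and 1.07 in those labelled K2KO. These ratios did not overlap between the groups (exact two-sided permutation test, p = 0.0286, adjusted p = 0.0714 over the 5 ratios compared, which were chosen after the values were seen).

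The promoters of the main ligand and of both receptors are shown because KLF factors such as KLF2 bind CACCC elements, and only one of these 3 genes passed. The windows are the 250 bases before a RefSeq start site (GRCm38.p6), read 5′ to 3′ on the strand of the gene, and capitals mark CACCC or its complement GGGTG.
Tgfb1 (chr7:25686752-25687001, plus strand): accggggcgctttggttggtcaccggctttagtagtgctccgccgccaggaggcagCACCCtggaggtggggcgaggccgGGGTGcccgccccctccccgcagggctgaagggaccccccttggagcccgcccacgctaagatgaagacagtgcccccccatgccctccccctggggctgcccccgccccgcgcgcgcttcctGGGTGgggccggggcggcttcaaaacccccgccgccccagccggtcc
Tgfbr1 (chr4:47352972-47353221, plus strand): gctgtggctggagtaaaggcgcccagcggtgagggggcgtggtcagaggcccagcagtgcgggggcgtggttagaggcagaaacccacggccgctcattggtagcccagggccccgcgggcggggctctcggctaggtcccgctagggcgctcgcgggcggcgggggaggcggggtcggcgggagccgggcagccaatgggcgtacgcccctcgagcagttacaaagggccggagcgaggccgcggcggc
Tgfbr2 (chr9:116175364-116175613, minus strand): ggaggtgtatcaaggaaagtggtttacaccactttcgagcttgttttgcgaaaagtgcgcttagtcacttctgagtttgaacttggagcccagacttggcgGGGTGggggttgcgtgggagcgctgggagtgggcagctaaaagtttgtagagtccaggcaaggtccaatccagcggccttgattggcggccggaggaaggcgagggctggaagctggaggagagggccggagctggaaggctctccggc
CACCC or GGGTG occurred 3 times in the Tgfb1 window, once in the Tgfbr2 window and not in this Tgfbr1 window. A second RefSeq start of Tgfbr1, with the window chr4:47385966-47386215, had 2 matches. On either strand the letters were found in 52.0% of 32817 promoter windows of the same length. The GC box GGGCGG or CCGCCC, which is bound by SP and KLF factors and can share end bases with the first motif, occurred 5 times before Tgfb1, 2 times before the first Tgfbr1 start and not before Tgfbr2 (32.7% of all windows). The SMAD box CAGAC or GTCTG occurred once before Tgfbr2 and not in the other 2 printed windows (42.2% of all windows). Of the 10 genes 5 had a promoter entry. Tgfb3, Smad2, Skil and the passing Smad4 and Smad7 had no entry, so matches cannot be set against passing for them. Tgfb2 had 1 CACCC match and Smad3 had none. These matches are letters in a window and not binding sites.

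Smad2, a receptor-activated SMAD, lies on chromosome 18 from 76241580 to 76310963 on the plus strand. It was at 11.6, 11.7, 11.96 and 10.9 FPKM in the LysM libraries and at 11.2, 14.2, 12.2 and 11.9 FPKM in those labelled K2KO. The groups overlapped, with K2KO1 above the LysM range and K2KO2 just above it. The log2 fold change was 0.09 (SE 0.08, 95% interval -0.08 to 0.27, limma adjusted p = 0.394), and it was -0.10 after correction for GC content and length, where Smad2 did not pass either.

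Smad3, the receptor-activated SMAD that itself binds DNA, lies on chromosome 9 from 63646767 to 63757994 on the minus strand. It was at 3.33, 3.46, 3.42 and 3.92 FPKM in the LysM libraries and at 3.73, 3.26, 3.40 and 3.02 FPKM in those labelled K2KO. The groups overlapped, and LysM3 was the highest and K2KO3 the lowest of all 8. The log2 fold change was -0.08 (SE 0.09, 95% interval -0.28 to 0.12, limma adjusted p = 0.555). Smad2 exceeded Smad3 by 2.78 to 3.49 times in the LysM libraries and by 3.00 to 4.35 times in those labelled K2KO (exact two-sided permutation test, p = 0.229).

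Smad4, the partner shared by the TGF-beta and BMP branches, lies on chromosome 18 from 73639009 to 73703780 on the minus strand. It was at 7.60, 7.58, 7.33 and 6.91 FPKM in LysM0 to LysM3 and at 10.1, 10.5, 10.2 and 8.04 FPKM in K2KO0 to K2KO3. The LysM libraries lay close together, and all 4 libraries labelled K2KO were above them, K2KO3 least. Smad4 rose from a mean of 7.35 ± 0.319 FPKM (SD, n = 4) to one of 9.72 ± 1.14 FPKM (SD, n = 4), or by 0.39 in log2 fold change (SE 0.09, 95% interval 0.19 to 0.59, limma adjusted p = 0.0208). It also passed after correction for GC content and length (log2 fold change 0.37, limma adjusted p = 0.0310), where 10.1% of all tested genes passed (5.42% higher). Smad4 did not pass without LysM1, LysM2, LysM3, K2KO0, K2KO1 or K2KO2, each left out in turn (limma adjusted p = 0.0532, 0.0504, 0.0795, 0.0626, 0.0603 and 0.0647), at log2 fold changes of 0.35 to 0.41. The ratio of Smad4 to Smad2 FPKM was 0.613 to 0.652 in the LysM libraries and 0.676 to 0.902 in those labelled K2KO (exact two-sided permutation test, p = 0.0286, adjusted p = 0.0714 over the 5 ratios).

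Smad7, the inhibitory SMAD that recruits ubiquitin ligases to the receptor, lies on chromosome 18 from 75367529 to 75395935 on the plus strand. It was at 2.491, 1.80, 1.41 and 1.17 FPKM in LysM0 to LysM3 and at 2.97, 2.489, 3.93 and 4.44 FPKM in K2KO0 to K2KO3. The groups met at 1 point, where LysM0 was just above K2KO1, and in the other 15 of 16 pairs the library labelled K2KO was higher. Smad7 rose from a mean of 1.72 ± 0.576 FPKM (SD, n = 4) to one of 3.46 ± 0.887 FPKM (SD, n = 4), or 2.01 times. Its log2 fold change of 0.99 was the largest among the tested members (SE 0.24, 95% interval 0.44 to 1.53, limma adjusted p = 0.0260). The exact two-sided permutation test gave p = 0.0571. Smad7 passed after correction for GC content and length (log2 fold change 1.03, limma adjusted p = 0.0331). It did not pass without LysM1, LysM2, LysM3, K2KO0 or K2KO2, each left out in turn (limma adjusted p = 0.0625, 0.0672, 0.0890, 0.0609 and 0.0762), at log2 fold changes of 0.83 to 1.04. With every library kept, Smad7 did not pass under a block on the column number (limma adjusted p = 0.0566, and 0.0704 with the correction). The ratio of Smad7 to Smad4 FPKM was 0.169 to 0.328 in the LysM libraries and 0.236 to 0.552 in those labelled K2KO (exact two-sided permutation test, p = 0.143).

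Skil, which encodes the SMAD co-repressor SnoN, lies on chromosome 3 from 31095058 to 31122577 on the plus strand. It was at 13.7, 13.4, 11.5 and 11.5 FPKM in the LysM libraries and at 20.1, 11.4, 20.7 and 22.1 FPKM in K2KO0 to K2KO3. The 3 libraries K2KO0, K2KO2 and K2KO3 were well above the LysM range, and K2KO1 was the lowest of all 8. The log2 fold change was 0.53 (SE 0.19, 95% interval 0.10 to 0.96, limma adjusted p = 0.0780), and the exact two-sided permutation test gave p = 0.143. Skil passed without K2KO1 (log2 fold change 0.74, limma adjusted p = 0.00674), the only 1 of 8 fits with a library left out. In that fit, which lacks the lowest value of Skil, 6.65% of all tested genes passed. In the rest of the 8 fits the limma adjusted p was 0.0897 to 0.197, and without K2KO3 the log2 fold change was 0.43. Skil also passed when libraries were scaled to the same upper quartile (0.59, limma adjusted p = 0.0436). Under this scaling 18.9% of all tested genes passed, 13.8% higher, against 18.4% and 9.84% without it. After correction for GC content and length the log2 fold change of Skil was 0.29 (limma adjusted p = 0.386).

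Which library was highest or lowest in its group differed across the pathway. This was noticed after the values were seen and is a description. K2KO1 was the lowest library of its group for Tgfb3, Smad7 and Skil and the highest for Tgfb1, Smad2 and Smad4. These are 33.3% of the 9 tested members in each case, against 23.7% and 30.6% of all tested genes, and K2KO3 was the lowest for 4 members (44.4%, against 33.1%) and the highest for 3. Among the LysM libraries, LysM0 was the highest for 6 of the 9 members (66.7%, against 27.4%) and LysM3 the lowest for 5 (55.6%, against 24.8%), and this held for all 3 passing members. K2KO1 was the lowest for 6 of 11 tested genes that TGF-beta is known to induce (54.5%), against 23.7% of all tested genes. Among these were Id1, an inhibitor of basic helix-loop-helix factors, at 5.45 FPKM in K2KO1 and 11.7 to 20.7 FPKM in the rest of its group, and Id3, its relative, at 221 FPKM against 392 to 514 FPKM. K2KO3 was the highest of its group for 7 of the 11 (63.6%), against 29.5% of all tested genes. In the LysM group, LysM1 was the highest for 8 of the 11 (72.7%, against 21.7%) and LysM2 the lowest for 7 (63.6%, against 23.6%). The inhibitory SMAD of the BMP branch, Smad6, was at 1.75, 1.599, 0.945 and 1.26 FPKM in the LysM libraries and at 3.31, 1.02, 1.91 and 4.36 FPKM in those labelled K2KO. Its groups overlapped through K2KO1 (log2 fold change 0.73, SE 0.40, limma adjusted p = 0.201).

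**Figure D3:**
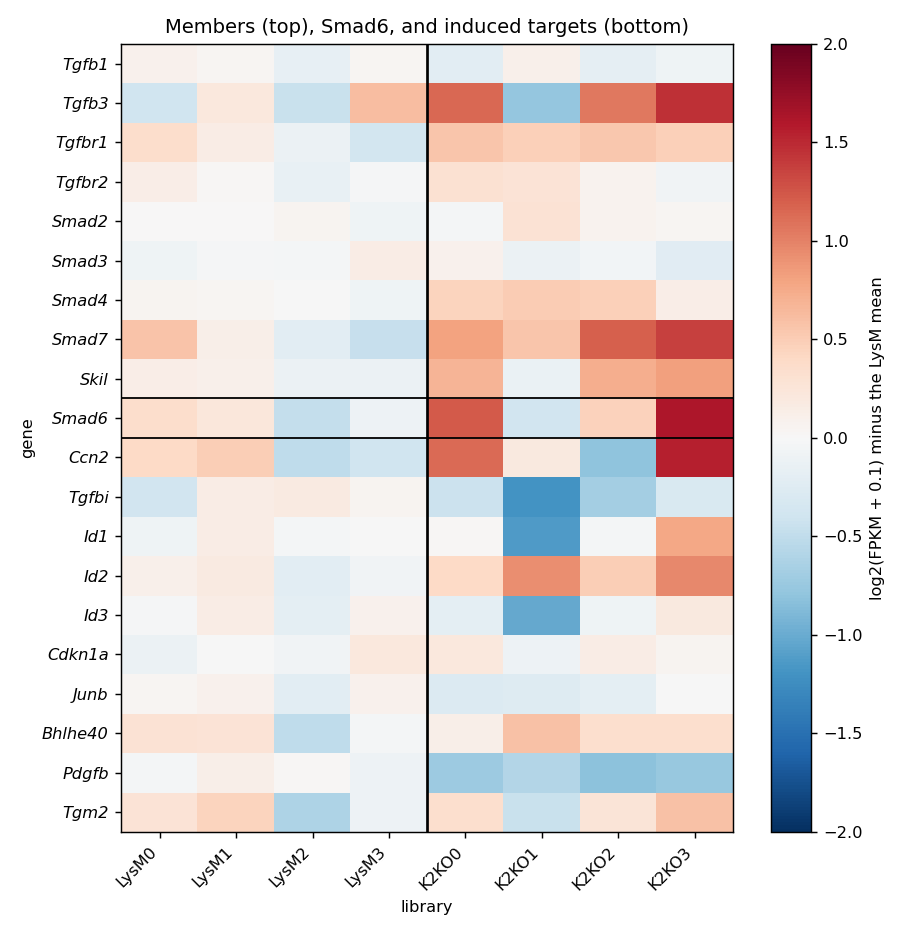
Each cell is the log2(FPKM + 0.1) of a gene (rows) in a library (columns) minus the mean of the 4 LysM libraries, from blue (lower) to red (higher). Rows are the 9 tested members, Smad6 and 10 of the tested induced targets, with LysM libraries left of the black line. For Tgfb3, Smad6 and Skil, K2KO1 is blue and the other K2KO columns are red, for Smad7 all 4 K2KO columns are red, and for Tgfbi all 4 are blue.

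The GC content of a transcript was related to its difference between the groups in the whole table, and the members span a wide range of GC content. Over 10899 tested genes Spearman's rho between GC content and log2 fold change was -0.40, a correlation across genes, which are not independent replicates. Skil and Tgfbr1 had the lowest GC content of the members, both 41.0%, against a median of 49.7% over all tested genes. Their log2 fold changes of 0.53 and 0.52 became 0.29 and 0.30 with the correction. Smad7 had the highest at 56.9%, and Smad4 had 49.4%, near the median, and both passed after the correction. Smad2, at 44.9%, went from 0.09 to -0.10. The correction took GC content and transcript length together, and their parts were not separated. Tgfbr2, with a GC content of 49.6% and 8092 bases, went from 0.14 to 0.03, whereas Smad4, at 3384 bases, went from 0.39 to 0.37. Members of similar GC content thus shifted by different amounts. Why GC content and the difference between the groups were related was not tested.

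**Figure D4:**
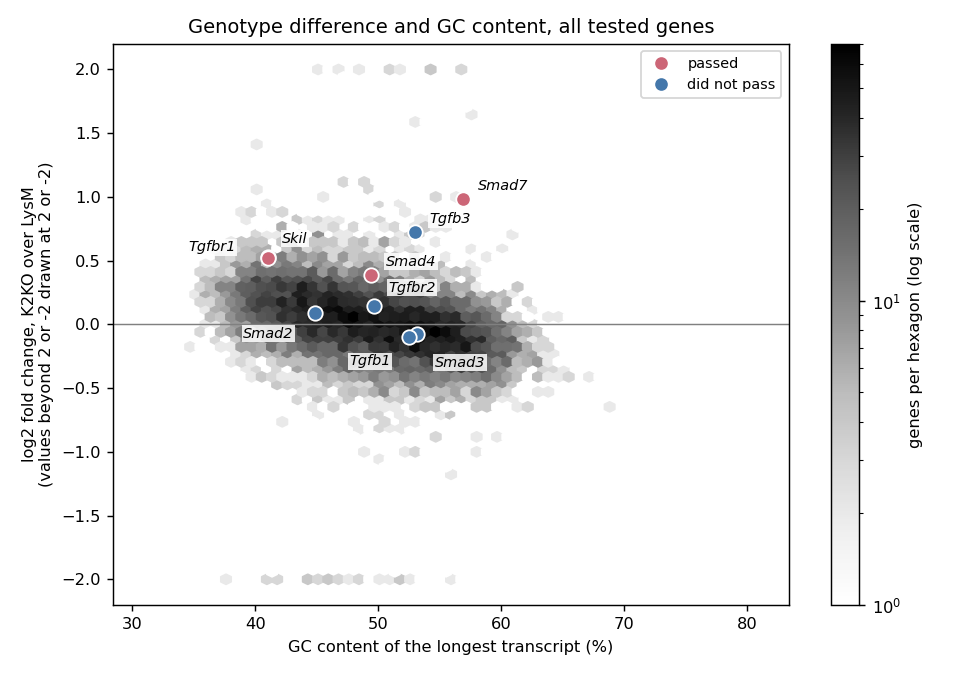
Log2 fold change, libraries labelled K2KO over LysM (vertical axis), against the GC content of the longest transcript (horizontal axis) for the tested genes, as hexagons shaded by the number of genes on a log scale. Coloured points are the 9 tested members, red where they passed. Tgfbr1 and Skil coincide at a GC content of 41.0%, where most genes lie above 0, and Smad7 lies at 56.9%, where most lie below.

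Around the members, 8 lists of 116 genes (2 of them in more than 1 list) covered the rest of the pathway, and 112 were listed. Of these 71 were tested and 14 passed, or 19.7%, against 18.4% of all tested genes, a share near the background. The median log2 fold change of the 71 was 0.13, against 0.011 over all tested genes, and 0.079 after correction for GC content and length. Of the 14, the libraries labelled K2KO were higher in 10 and lower in 4. With that correction 7 passed (9.86%, against 10.1% of all tested genes), and all were among the 14. They were Acvr1, Bmp2, Usp9x, Id2, Pdgfb, Gpr34 and Cx3cr1. Without LysM1, LysM2, LysM3, K2KO0, K2KO1 or K2KO2, each left out in turn, 5, 5, 1, 2, 4 and 2 genes of the lists passed, while 6.74%, 9.43%, 3.09%, 6.47%, 6.65% and 4.54% of all tested genes did.

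Upstream of the receptors, 1 of 11 tested genes of latent storage and activation passed, against 18.4% of all tested genes (9.84% higher). This was Thbs1, thrombospondin 1, which activates latent TGF-beta, and it was higher. It was at 37.6, 58.7, 30.9 and 45.3 FPKM in the LysM libraries and at 104, 50.1, 92.5 and 86.7 FPKM in K2KO0 to K2KO3 (log2 fold change 0.94, SE 0.25, limma adjusted p = 0.0320). Again K2KO1 alone lay within the LysM range, and Thbs1 did not pass after correction for GC content and length (limma adjusted p = 0.0651). Nrros, which anchors latent TGF-beta on myeloid cells and was the most abundant of the list, had a log2 fold change of -0.15 (limma adjusted p = 0.253), and for the integrin Itgb5 it was -0.03 (limma adjusted p = 0.807). Itgb6, an integrin subunit of epithelia, was listed at 0 in every library.

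Of 6 tested co-receptors and other receptors, 1 passed, and it was higher, against 18.4% of all tested genes (9.84% higher). Acvr1, a BMP and activin receptor kinase, was at 3.70, 3.44, 3.82 and 3.47 FPKM in the LysM libraries and at 4.56, 4.74, 4.15 and 4.31 FPKM in those labelled K2KO. The groups did not overlap (log2 fold change 0.29, SE 0.07, limma adjusted p = 0.0250). The more abundant Acvrl1 and Eng, known from endothelium, had log2 fold changes of -0.13 (limma adjusted p = 0.355) and 0.10 (limma adjusted p = 0.335). Of 3 tested ligands and antagonists of the wider family 1, Bmp2, fell, beside 8.61% lower among all tested genes. It was at 7.01, 9.42, 9.03 and 10.8 FPKM in the LysM libraries and at 5.396, 7.27, 5.47 and 4.43 FPKM in those labelled K2KO (log2 fold change -0.68, SE 0.16, limma adjusted p = 0.0239), with K2KO1 just above LysM0. Gdf15, a stress-induced member, had a log2 fold change of -0.27 (limma adjusted p = 0.275) and Gdf3 one of 0.71 (limma adjusted p = 0.0748). Smad1 and Smad5, which transduce BMP signals, did not pass (log2 fold changes 0.10 and 0.09, limma adjusted p = 0.195 and 0.551), and Smad9 was listed at 0 in every library.

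Of 21 tested SMAD regulators 3 passed, all higher, beside 18.4% of all tested genes that passed and 9.84% that were higher, and the median log2 fold change was 0.19 (0.085 after correction for GC content and length). Usp9x, a deubiquitinase that keeps SMAD4 active, was at 1.29, 1.16, 0.855 and 0.906 FPKM in the LysM libraries and at 2.61, 2.95, 2.24 and 1.47 FPKM in those labelled K2KO. The groups did not overlap (log2 fold change 1.04, SE 0.22, limma adjusted p = 0.0178). Rnf111, or Arkadia, a ubiquitin ligase that degrades SMAD7 and SnoN, rose with a log2 fold change of 0.36 (limma adjusted p = 0.0293), and Wwp1, a ubiquitin ligase that acts with SMAD7 on the receptor, with 0.29 (limma adjusted p = 0.0396). Neither passed after correction for GC content and length (limma adjusted p = 0.0675 and 0.616). A further 3 had a limma adjusted p under 0.05 at a fold change too small to pass. These were Fkbp1a, which holds the receptor kinase inactive (log2 fold change -0.25, limma adjusted p = 0.0391), the phosphatase gene Ctdsp2 (-0.18, limma adjusted p = 0.0441) and Sptbn1, a spectrin (0.24, limma adjusted p = 0.0484). The groups did not overlap in any of them, beside 23.1% of all tested genes that did not overlap, and other regulators that did not overlap are not named. Of 10 genes of non-SMAD signaling 2 passed, both higher, beside 18.4% of all tested genes that passed and 9.84% that were higher. These were Rock1, a kinase downstream of RhoA (log2 fold change 0.33, limma adjusted p = 0.0369), and Traf6, a ubiquitin ligase that couples receptors to TAK1 (0.28, limma adjusted p = 0.0296), and after the correction neither passed (limma adjusted p = 0.338 and 0.173). Map3k7, which encodes TAK1, did not overlap between the groups but fell short of the fold change required (0.21, limma adjusted p = 0.0434). Among all tested genes 12.9% did not overlap in this direction.

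Downstream, the genes that TGF-beta is known to induce did not move one way. Of 11 tested, 1 rose and 2 fell, beside 9.84% higher and 8.61% lower among all tested genes, and the median log2 fold change was 0.076 (0.19 after correction for GC content and length). Id2, an inhibitor of basic helix-loop-helix factors, was at 239, 252, 193 and 213 FPKM in the LysM libraries and at 295, 426, 313 and 436 FPKM in those labelled K2KO, without overlap (log2 fold change 0.70, SE 0.15, limma adjusted p = 0.0171). Pdgfb, a growth factor for mesenchymal cells, was at 31.9, 35.7, 33.4 and 30.8 FPKM against 19.9, 21.8, 18.6 and 19.5 FPKM, the smallest adjusted p of these lists (log2 fold change -0.72, SE 0.07, limma adjusted p = 9.12e-04). Tgfbi, an extracellular matrix protein named for its induction by TGF-beta, fell with a log2 fold change of -0.65 (SE 0.20, limma adjusted p = 0.0449). After correction for GC content and length the log2 fold change of Tgfbi was -0.61, and it did not pass (limma adjusted p = 0.0746). Of 6 tested genes that microglia need TGF-beta to express, 2 rose and 1 fell. Gpr34, a lysophosphatidylserine receptor, was at 0.348, 0.763, 0.499 and 0.663 FPKM in the LysM libraries and at 2.01, 0.930, 1.81 and 1.40 FPKM in those labelled K2KO (log2 fold change 1.29, limma adjusted p = 0.0217), and it entered the test only through its higher group. Mertk, a receptor for apoptotic cells, rose with a log2 fold change of 0.36 (limma adjusted p = 0.0285). Cx3cr1, the fractalkine receptor, was at 3.81, 5.79, 5.31 and 3.92 FPKM against 2.13, 1.32, 2.07 and 3.501 FPKM (log2 fold change -1.09, limma adjusted p = 0.0239).

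**Figure D5:**
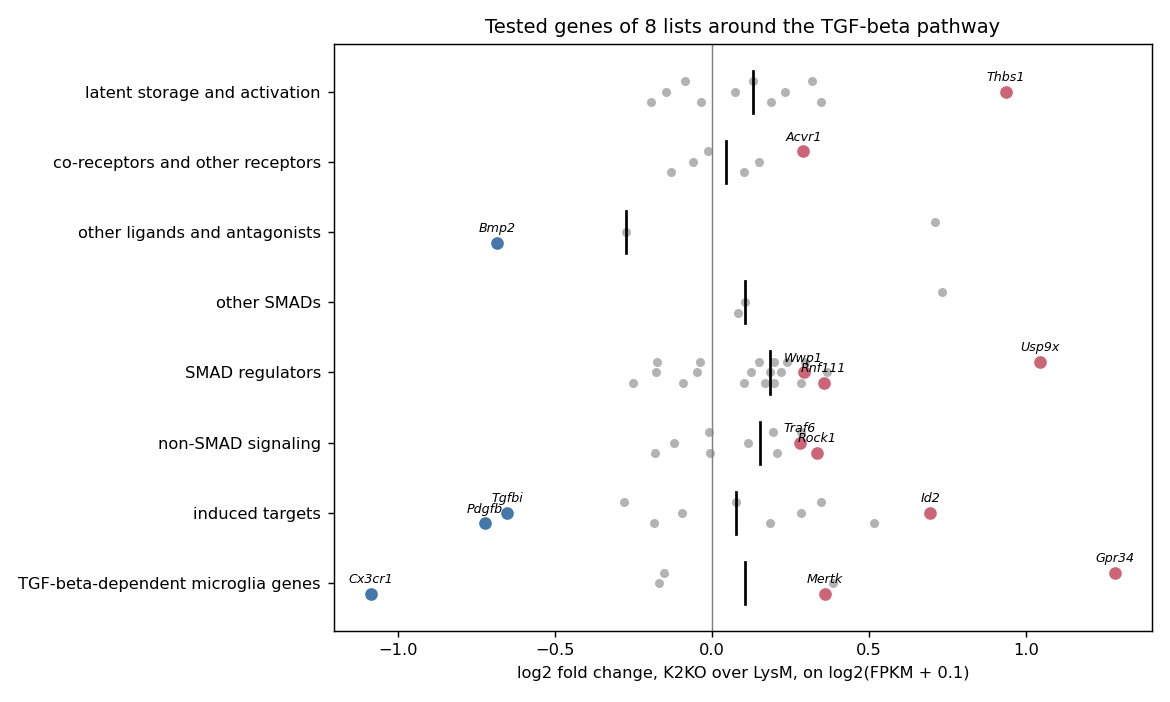
Log2 fold change on the log2(FPKM + 0.1) scale, libraries labelled K2KO over LysM (horizontal axis), of the tested genes of 8 lists (rows). Named points passed, red higher and blue lower, grey points did not pass, and black bars are medians. The list medians lie between -0.27 and 0.19, and in most lists 1 to 3 genes passed. Some genes that did not pass lie as far from 0 as genes that did.

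Markers of other cells were low or mixed, and their part in the results was not tested. None of 8 fibroblast markers reached a mean of 1 FPKM. Their summed level was 0.565 to 1.75 FPKM in the LysM libraries and 3.90, 1.44, 0.851 and 2.65 FPKM in K2KO0 to K2KO3, with Dcn the most abundant. K2KO0 and K2KO3, with Tgfb3 at 2.40 and 3.00 FPKM, had the highest sums, but K2KO2, with Tgfb3 at 2.24 FPKM, had a lower sum than K2KO1, with Tgfb3 at 0.561 FPKM. Platelets are rich in TGF-beta, and the summed level of 4 megakaryocyte markers was 2.21 to 4.51 FPKM in the LysM libraries and 4.73 to 9.18 FPKM in those labelled K2KO. Their most abundant gene, Ppbp, rose with a log2 fold change of 1.07 (limma adjusted p = 0.0291), but did not pass after correction for GC content and length (limma adjusted p = 0.0540). Of 8 neutrophil markers 7 were tested. Of these 1, Camp, fell (log2 fold change -1.14, limma adjusted p = 0.0178), beside 8.61% lower among all tested genes. S100a9, the most abundant, had a log2 fold change of -0.07 (limma adjusted p = 0.849). None of 6 lymphocyte markers reached a mean of 1 FPKM, with Cd79a the most abundant. No marker of dendritic cells, endothelium or osteoclasts passed. Their most abundant genes were Itgax, Kdr and Ctsk, and Calcr was listed at 0 in every library.

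Over the 8 libraries, the tested genes whose log2 values followed each passing member most closely were found by Pearson's r, as a description. For Tgfbr1 these were Cpeb2 (r = 0.982) and Shisa9 (r = 0.978). For Smad4 they were Hivep1 (r = 0.997) and the pseudogene Nutf2-ps1 (r = 0.996). For Smad7 they were Tnf, the inflammatory cytokine (r = 0.977), and Hax1 (r = 0.97). Tnf had a log2 fold change of 0.44 (limma adjusted p = 0.0511), so it did not pass. Among the tested genes within 1 Mb of a member, other members left out, 2 of 7 near Smad4 and 2 of 5 near Skil rose and none fell, against 9.84% higher and 8.61% lower among all tested genes. Near Tgfbr1 2 of 14 rose and 2 fell. Near Tgfb1 6 of 27 fell, near Smad3 2 of 18 and near Tgfb3 1 of 16, and none rose there. No neighbour of Smad2 (5 tested), Smad7 (6), Tgfb2 (3) or Tgfbr2 (2) passed.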

How the data were processed

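BMDMs of 4 LysM and 4 K2KO mice were studied with 1 library per mouse. According to the methods, the authors used a stranded total RNA kit, aligned reads to mm10 with TopHat2 and computed FPKM with Cufflinks, whereas the submitters' processing notes name STAR, Cufflinks and Cuffdiff. Versions are not given in the sources used here. The authors deposited FPKM in 1 column per library. FPKM hold no counts, so no counting error or detection limit could be given, and depth set no bound on the low values. Columns are numbered from 0 and samples from 1, so columns were matched to the genotype only.

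Of the 23761 gene identifiers, 23645 matched GENCODE M21 (GRCm38), which gave names, positions, GC content and length. Genes with a mean of at least 1 FPKM (10920) were fitted as log2(FPKM + 0.1) with limma 3.58.1 (eBayes with an intensity trend, no covariate) in R 4.3.3, with Benjamini-Hochberg adjustment over all of them. Exact two-sided permutation tests used scipy 1.17.1. Near-identical copies were sought with BLAST 2.17.0. The alternatives were pseudocounts of 1 and 0.01, a minimum mean of 0.1 FPKM or none, quantile or upper-quartile scaling, no intensity trend, a loess correction of every library for GC content and length (span 0.3), a block on the column number, and leaving out single libraries.

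The members, lists and tests were chosen with earlier results of these data known. The named genes are all members, Klf2, Gapdh and Actb, the passing genes of each list (up to 5, by size of change, and the 2 most abundant tested genes where fewer than 2 passed), the most abundant marker and those listed at 0, and the 2 genes most like each passing member. Smad6, Id1, Id3, Fkbp1a, Ctdsp2, Sptbn1, Map3k7, the markers Lyz2 and Camp and the 5 ratios were added after their values were seen. Bmp6, Mstn, Nog and Sall1 were not analysed here, and Ccn2 was matched as Ctgf. 1 of the induced targets is counted but not reported here by name.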

Additional observations from a re-analysis of the deposited data

Results flagged for a closer look

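Among 48 groups of 4 libraries, over the members and the passing genes of the lists, 2 held a library set apart from the other 3 on the log2(FPKM + 0.1) scale by Dixon's test, which compares the gap to the nearest library with the whole range. None was set apart on the FPKM scale. Chance gives about 1 in 20 groups, or 2.4 of the 48, and with 4 values the test detects only wide gaps. Skil was at 11.4 FPKM in K2KO1, and without K2KO1 its log2 fold change was 0.74 (limma adjusted p = 0.00674). In that fit 6.65% of all tested genes passed. Smad4 was at 8.04 FPKM in K2KO3, the lowest library labelled K2KO, and without K2KO3 its log2 fold change was 0.48 (limma adjusted p = 0.00373). In that fit 26% of all tested genes passed. Each library was left out because the low value of the gene itself set it apart. The larger fold change follows from that choice and is not evidence.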

How the results depend on the processing

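Smad4 had a log2 fold change above 0 in all 18 alternatives and passed in 9 of the 10 that kept every library, Tgfbr1 and Smad7 in 7 of 10 each. With 1 library left out in turn they passed in 2, 2 and 3 of 8 fits, respectively. The number of members that passed ranged from 0 to 3 in these 8 fits, and it was 0 without LysM1, LysM2, LysM3, K2KO0 or K2KO2. The same fits passed 337 to 2837 of all tested genes and 1 to 18 genes of the 8 lists. Without LysM1, LysM2, LysM3, K2KO0, K2KO1 or K2KO2, the number over all tested genes was 736, 1030, 337, 706, 726 and 496. Without a filter on low values 483 genes passed in all, no member and 1 gene of the lists. After correction for GC content and length 1103 genes passed, 2 members and 7 genes of the lists. Upper-quartile scaling shifted the median of all genes to 0.072 on the log2 scale, and 72.7% of 2067 calls were then higher in the libraries labelled K2KO, against 53.3% of 2014. Log2 fold changes reversed for Tgfb1 with quantile normalization (0.066) and for Smad2 with the correction for GC content and length, alone and with the block (-0.10 in both), and neither gene passed in any fit. The cause was not tested.

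Deviations from the group means of libraries with the same column number correlated at -0.070, 0.020, 0.073 and -0.057, so the numbers gave no sign of pairing. With the replicate block 2057 genes passed in all, 2 members and 11 genes of the lists, and Smad7 had a limma adjusted p of 0.0566. With the block and the correction for GC content and length 908 genes passed, 1 member (Smad4) and 4 genes of the lists.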
